A study of Mus musculus with 6 samples.

Results

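The cells described here are cartilage cells (chondrocytes) recovered by single-cell RNA sequencing of skin from Balb/c mice, in 3 control libraries (EC-SAL) and 3 libraries from mice sensitized through the skin with OVA (EC-OVA). Sensitization ran for 10 days, and skin was taken 2 days after its end, digested with enzymes and loaded on the 10x Genomics 3′ platform. All 6 libraries share strain and protocol, and the labels give no age, sex, number of mice or skin site. Nothing states that the libraries came from separate animals, so p-values measure the spread between libraries only. A barcode was taken as a chondrocyte when it held at least 300 genes, at most 15% mitochondrial UMIs, at least 10 UMIs (unique molecular identifiers, 1 per captured transcript) of Col2a1, Acan, Col9a3 and Snorc together, under 0.5% of UMIs from Krt5 and Krt14, and no UMI of Pecam1 or Cdh5. The rule found 893 chondrocytes among 25772 filtered barcodes of 38206 in all. Of 936 barcodes with 10 marker UMIs, 18 failed the gene or mitochondrial limit, 8 the keratin limit and 17 the endothelial limit.

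Chondrocytes make and maintain cartilage, a tissue of type II, IX and XI collagen fibrils holding a gel of aggrecan on hyaluronan. SOX9, with SOX5 and SOX6, drives their collagen and proteoglycan genes. The cartilage of the external ear is elastic: its matrix also carries elastic fibres, built of elastin on a microfibril scaffold and cross-linked by lysyl oxidases, and its cells are known for storing fat. The labels name only skin, so an origin in the ear could not be checked, while the cartilage name could be.

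Genes outside the rule bore the cartilage name out. Relative to all other filtered barcodes, the mean level in CPM (UMIs of a gene scaled to the same total in every library sum) was 116-fold for Col9a2, a type IX collagen chain, 89-fold for Col11a2, 56.2-fold for Col9a1, 54.7-fold for Cnmd, which encodes the cartilage protein chondromodulin, and 8.71-fold for Sox9. Hapln1, the link protein that ties aggrecan to hyaluronan, was 39.9-fold and Eln, elastin, 42.1-fold. Among genes with at least 100 CPM in chondrocytes, the 15 largest such ratios also included 1520401A03Rik (157-fold), Meltf (122-fold), Foxa3 (82-fold), Fzd9 (76-fold), Lbhd2 (59.1-fold), G0s2 (50.4-fold) and Trf (49.8-fold), beside the rule genes Col2a1, Snorc, Col9a3 and Acan. These ratios follow from choosing cells by cartilage genes and are a description. Matn1, a matrilin of hyaline cartilage, had no UMI.

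Markers of other cells were absent for some types and present for others. Ptprc, the pan-leukocyte gene, had a UMI in 0 of 354 control chondrocytes, which allows a share of up to 0.847%, and in 2 of 539 after OVA; a label that calls the cells CD4 does not describe them. The adipocyte genes Adipoq, Cfd and Plin1 and the bone genes Bglap, Sp7 and Dmp1 were at 0 in all 6 libraries. Neither list was absent as a whole. The 4 adipocyte markers summed to 9.96 to 22.04 CPM in controls and 13.5 to 21.7 after OVA, against 638 in all other barcodes. The 4 bone markers summed to 20.3 to 67.3 CPM in controls and 9.88 to 23.4 after OVA, above the 2.57 of all other barcodes. The 6 fibroblast markers summed to 6680 to 8826 CPM in controls and 7301 to 10872 after OVA, against 14758 in all other barcodes, with Dcn and Lum shared by cartilage. The 6 tendon-like markers, Comp among them, summed to 2021 to 2123 CPM in controls and 1708 to 1913 after OVA, above the 452 of all other barcodes. Red cell markers ran from 8.08 to 3264 CPM and melanocyte markers from 3.94 to 264 after OVA, against at most 21.6 and 5.46 in controls. Of 958 Hba-a1 UMIs in EC-OVA 1, 956 came from 1 cell, and all 171 Mlana UMIs in EC-OVA 2 came from 2 cells. The 5 keratinocyte markers, of which the rule used Krt5 and Krt14, summed to 535 to 5070 CPM in controls and 165 to 441 after OVA. No chondrocyte barcode occurred in more than 1 library.

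Among the cells, the marker genes formed a gradient without a gap at the threshold. The 381 barcodes with 5 to 9 marker UMIs, just outside, held 1330 CPM of Eln, 490 of Sox9, 1976 of Col1a1 and 9717 of Dcn. The 248 barcodes with 10 to 14, just inside, held 2636 CPM of Eln, 756 of Sox9, 298 of Col1a1 and 7754 of Dcn. At 50 or more marker UMIs, 126 cells held 14073 CPM of Eln, 912 of Sox9, 561 of Col1a1 and 2560 of Dcn. Elastin was thus higher and decorin lower where cartilage markers were higher. With both groups pooled, type I collagen was lower inside the threshold than just outside it. Past it the pooled values had no steady order (523 CPM from 15 to 19 and 246 from 20 to 49). In controls alone, Col1a1 went down over these bands past the threshold, at 226, 205, 159 and 99.8 CPM. In EC-OVA it stood at 364, 746, 293 and 666 CPM.

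Chondrocytes made up a larger share of the EC-OVA libraries. In controls 124, 117 and 113 chondrocytes were 2.32% (exact binomial 95% interval 1.94 to 2.77), 2.54% (2.10 to 3.03) and 2.60% (2.15 to 3.12) of filtered barcodes. After OVA 183, 190 and 166 were 4.77% (4.11 to 5.49), 4.65% (4.02 to 5.34) and 4.67% (4.0 to 5.42). The groups did not overlap, and the means were 2.49 ± 0.145% and 4.69 ± 0.0625% (SD, n = 3 each; two-sided exact permutation p = 0.1, the smallest that 3 against 3 allows). The intervals cover counting error only.

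Depth and the rest of the tissue moved with this share. Median UMIs per chondrocyte were 4120.5, 4193 and 4566 in controls and 4835, 4778 and 5857.5 after OVA, and median marker UMIs 16, 16 and 20 against 23, 24.5 and 25. Barcodes rich in Krt5 and Krt14 fell from between 26.2 and 26.9% of filtered barcodes to between 13.4 and 15.9%. Their part in the share was not tested as a cause, but it could be measured: among barcodes low in keratin the means were 3.39 ± 0.213% and 5.49 ± 0.160%, and among chondrocytes, fibroblasts and tendon-like cells together 8.36 ± 0.445% and 12.2 ± 0.853%. With markers at 0.3% or more of a cell's UMIs in place of 10 UMIs, the means were 2.15 ± 0.140% and 3.94 ± 0.241%. Across marker thresholds the ratio of EC-OVA to EC-SAL went from 1.40 at 3 UMIs to 4.61 at 50 UMIs, and the libraries stayed apart at each.

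**Figure D1:**
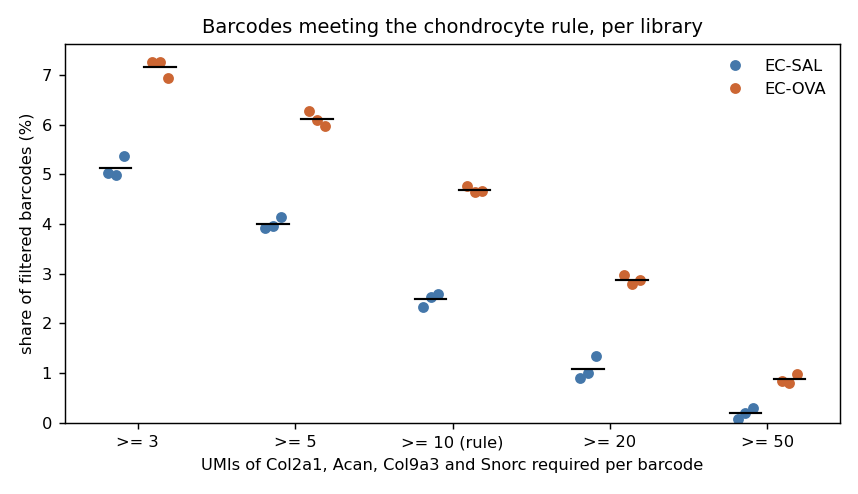
Share of filtered barcodes (y axis, percent) that met the chondrocyte rule at 5 thresholds of marker UMIs (x axis); points are libraries and bars group means. At the rule's threshold the control libraries lie between 2.32 and 2.60% and the EC-OVA libraries between 4.65 and 4.77%.

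For the comparison of gene levels, UMIs were summed over the chondrocytes of each library, 549711 to 602557 in controls and 1016064 to 1113741 after OVA. Of 6777 genes with enough counts, 22 were higher (0.325%) and 19 lower (0.280%) after OVA in edgeR's quasi-likelihood test with Benjamini-Hochberg adjustment. Genes of the cell rule were tested with the rest: Col2a1 is among the higher and Krt14 among the lower. As the rule chose cells by these genes, their calls are not read as results. By p, the higher genes were led by 1520401A03Rik, Spp1, Has1 and Ccl7; they also included the elastic fibre genes Eln and Loxl2, the matrix genes Tnc and Postn, and the protease inhibitors Timp1 and Timp3. Among the lower were Apoe and a group of epidermal genes. An unadjusted p under 0.05 was reached by 706 genes (10.4%). The counts moved with single libraries: without EC-SAL 3 they were 6 and 3, without EC-OVA 1 11 and 2, without EC-OVA 2 30 and 8, without EC-OVA 3 8 and 5, and without EC-SAL 2 31 and 58. With at least 50 marker UMIs, where controls held 26 cells, they were 5 and 1.

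The gene with the smallest p was 1520401A03Rik, a protein-coding gene on the minus strand of chromosome 17 (chr17:23704488-23722783, GRCm38, GENCODE M21). It stood at 2368, 3247 and 2247 CPM in the control libraries and at 9939, 10170 and 11733 CPM after OVA. All 3 EC-OVA libraries were above all controls, with a log2 fold change of 2.03 ± 0.132 (SE; edgeR adjusted p = 1.49e-05). Over all 6 libraries its mean was 157 CPM in tendon-like cells, 6.90 in keratin-rich barcodes and 4.84 in fibroblasts, so within this tissue it marked chondrocytes. The 250 bases before its first listed start in RefSeq (chr17:23721006-23721255, GRCm38.p6, minus strand) are printed because its change had the smallest p; the GENCODE model begins further upstream than this start.

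1520401A03Rik: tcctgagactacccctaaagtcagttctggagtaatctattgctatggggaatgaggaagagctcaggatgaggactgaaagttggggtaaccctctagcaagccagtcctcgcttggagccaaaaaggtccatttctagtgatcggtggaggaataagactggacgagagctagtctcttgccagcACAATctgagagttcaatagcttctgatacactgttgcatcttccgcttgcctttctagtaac

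Capitals mark the letters ACAAT, a core found in motifs of the SOX family. They were searched on both strands and occurred once here; 28.3% of 27025 promoter windows of this length hold them. Neither ACAAAG on either strand (in 16.5% of windows) nor TATAAA on the gene's strand (in 8.12%) was among these letters.

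The rise of 1520401A03Rik was seen both in how many cells carried it and in how much they carried. A UMI was found in 40.3, 53.0 and 47.8% of control chondrocytes and in 56.8, 65.8 and 67.5% after OVA. With every cell thinned to 1000 UMIs, which left out no chondrocyte, the means were 33.3 ± 4.5% and 51.7 ± 4.8% (SD, n = 3), against 0.188 and 0.293% in keratin-rich barcodes thinned alike. Unthinned, keratin-rich barcodes with a UMI of it were 0.674% in controls and 2.91% after OVA. The distribution over cells was uneven: in each library some cells had no UMI, and 1 cell of EC-OVA 1 held 31.9% of that library's UMIs of the gene. Leaving out the 3 highest cells of every library, a check chosen after the values were seen, gave 1689, 2203 and 1286 CPM in controls and 6083, 7863 and 9941 after OVA. Those groups did not overlap either.

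Cells with matched marker UMIs showed the same order of groups for 1520401A03Rik, in bands chosen after the values were seen. Between 10 and 19 marker UMIs it stood at 1774, 2076 and 1038 CPM in controls and 6117, 3453 and 7226 after OVA. Between 20 and 49 the values were 2906, 4702 and 2322 against 6817, 9844 and 7331. At 50 or more, where controls held only 4, 9 and 13 cells, they were 3974, 3773 and 5159 against 19973, 19313 and 22553.

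Eln, the elastin gene (chr5:134702593-134747323), was among the most abundant matrix genes of these cells. Its level was 4077, 5485 and 4509 CPM in controls and 7495, 9217 and 8170 CPM after OVA. The groups did not overlap, and the log2 fold change was 0.84 ± 0.120 (edgeR adjusted p = 0.00794). Unlike for 1520401A03Rik, the share of cells with an Eln UMI was the same size in both groups (89.6 ± 1.4% and 89.6 ± 0.48%; thinned, 75.1 ± 2.6% and 75 ± 3.9%). Within bands of marker UMIs the libraries overlapped from 10 to 19 (3145, 2783 and 2368 CPM against 3955, 3418 and 2931) and at 50 or more (9678, 14097 and 9534 against 12298, 16162 and 15629). From 20 to 49 they did not (4508, 6500 and 4688 against 7292, 9446 and 7014). The call was lost with at least 20 marker UMIs (edgeR adjusted p = 0.0562) and without EC-SAL 3 (edgeR adjusted p = 0.0737).

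Per cell, Eln and 1520401A03Rik went together. Spearman's rho between their shares of a cell's UMIs was 0.40, 0.46 and 0.41 in the control libraries over 124, 117 and 113 cells, and 0.57, 0.60 and 0.55 after OVA over 183, 190 and 166. The same measure between 1520401A03Rik and Col9a2 lay between -0.17 and 0.11. These are descriptions over cells that share library and depth.

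G0s2, whose product inhibits the triglyceride lipase that opens fat droplets, stood at 1231, 2210 and 1792 CPM in controls and 2074, 2580 and 2569 CPM after OVA. The groups overlapped, and the log2 fold change of 0.48 ± 0.174 did not pass (edgeR adjusted p = 0.33). It was measured at 34.0 CPM in fibroblasts and 129 in tendon-like cells. Plin4, a fat droplet coat gene, had 3 UMIs in controls and 4 after OVA and was too low to test.

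**Figure D2:**
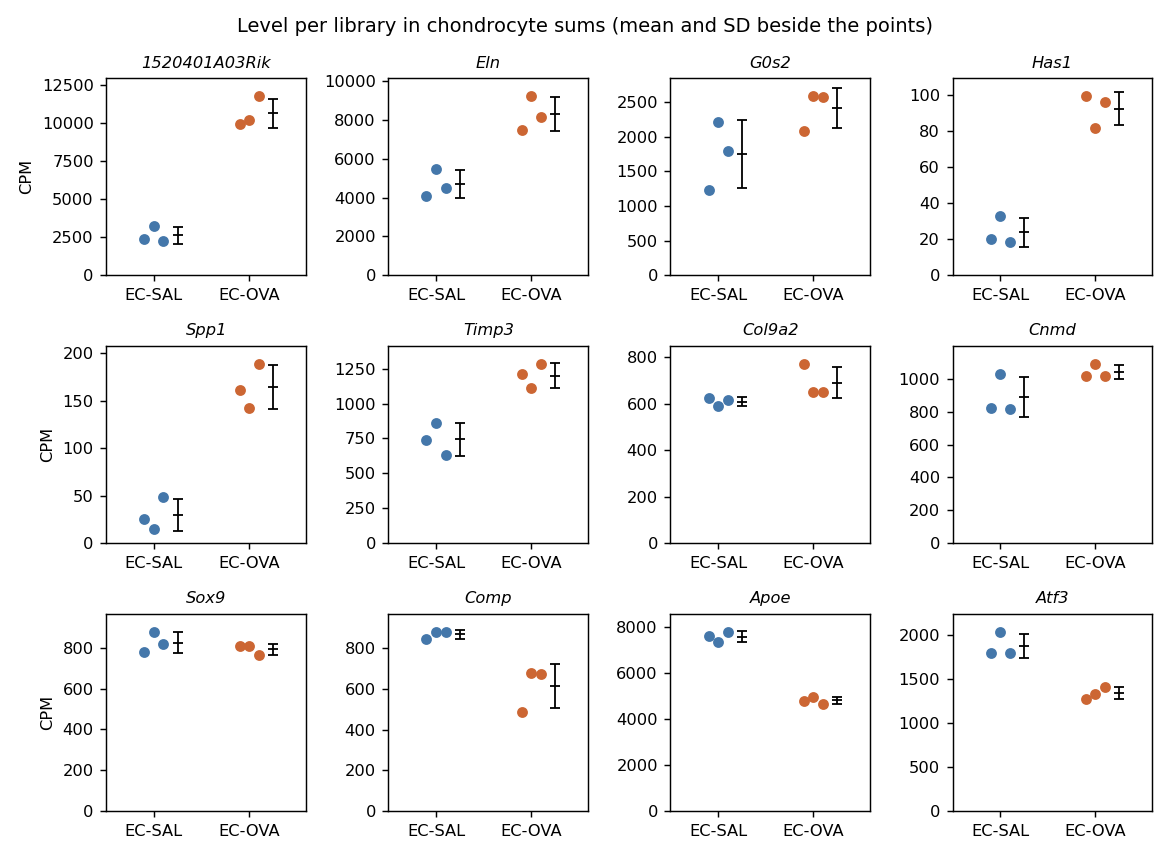
Level of 12 genes in chondrocyte sums (y axis, CPM from 0; each panel has its own scale) by group; points are libraries, and the bar beside them is the mean with SD. The groups are apart for 1520401A03Rik and Eln, overlap for G0s2 and Sox9, and lie in the opposite order for Apoe, Comp and Atf3.

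**Figure D3:**
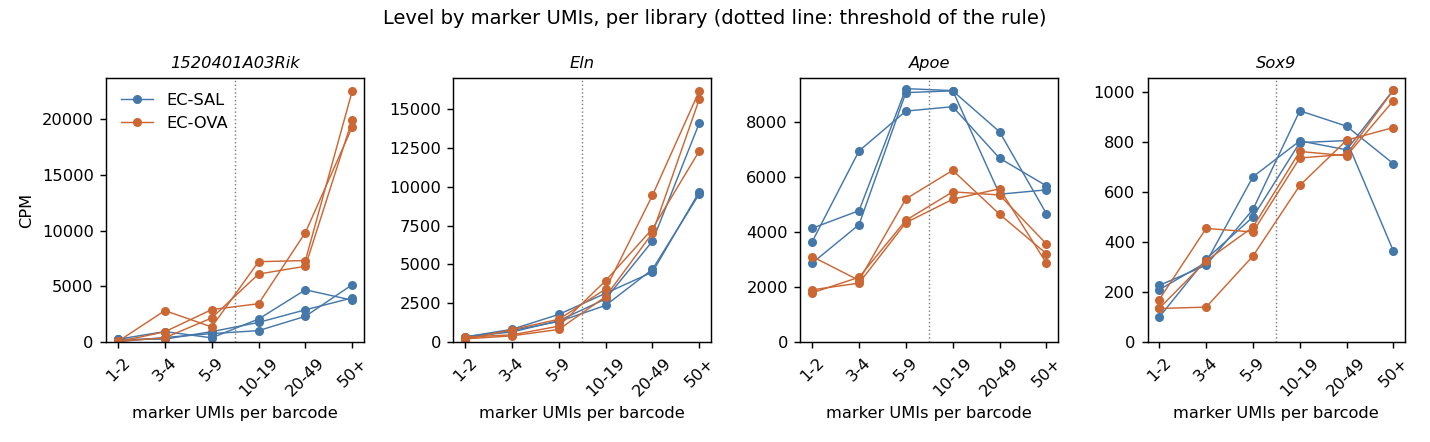
Level (y axis, CPM) of 4 genes in barcodes grouped by marker UMIs (x axis), with 1 line per library; the dotted line is the rule's threshold. Eln climbs with marker UMIs in every library. The lines of 1520401A03Rik mostly climb, with dips in some libraries, as in EC-SAL 2 from 4702 CPM at 20 to 49 to 3773 at 50 or more. The EC-OVA lines of 1520401A03Rik lie above the controls in every band past the threshold.

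Among cartilage collagens, 1 tested gene outside the rule rose (0.325% of all genes tested did). Leaving out Col2a1 and Col9a3, which chose the cells, all 10 members had a positive log2 change (51.9% of all genes tested did), with a median of 0.40 against 0.01 over all genes tested. Of these, 6 had groups that did not overlap (over all genes 8.38% were apart and higher, and 7.85% apart and lower). In the bands of marker UMIs used above, pooled by group, Col9a2 stood at 409 CPM in controls and 341 after OVA from 10 to 19. It stood at 614 and 690 from 20 to 49, and at 1476 and 1115 at 50 or more. Col11a2 stood at 163 and 143, 220 and 227, and 352 and 366 CPM in the same bands. Marker UMIs per cell were higher after OVA, and their part in the changes of the cartilage collagens was not tested. Col6a2, a chain of the type VI collagen that surrounds chondrocytes, passed the test: 536, 622 and 561 CPM in controls and 825, 808 and 851 after OVA, a log2 change of 0.54 ± 0.104 (edgeR adjusted p = 0.0367; without any 1 library but EC-SAL 2, 0.0819 to 0.18; with at least 20 marker UMIs 0.146, with cells thinned to 1000 UMIs 0.222). Col2a1, which chose the cells, is given without its p-value: 585, 797 and 601 CPM in controls and 1235, 1225 and 1452 after OVA. Col9a3, also in the rule, stood at 1649, 1823 and 1836 against 2369, 1897 and 2062 CPM. Col9a2, a marker outside the rule, stood at 625, 589 and 614 against 771, 652 and 652 CPM and did not pass (edgeR adjusted p = 0.563). Col11a1 came close, with 431 ± 49.7 and 665 ± 88.5 CPM (SD, n = 3; edgeR adjusted p = 0.0574). Summed without the rule genes, the collagens ran from 3807 to 4113 CPM in controls and from 4854 to 5214 after OVA.

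Proteoglycans and link proteins had no member past the test among 13 tested beside the rule genes Acan and Snorc, with 9 positive and a median log2 change of 0.20. Acan, the aggrecan core gene of the rule, stood at 834, 917 and 735 CPM in controls and 1030, 994 and 944 after OVA, and Snorc, a small cartilage membrane proteoglycan of the rule, at 1258, 1495 and 1738 against 1252, 1665 and 1037. Hapln1 was 170 ± 26.5 and 225 ± 18.8 CPM (edgeR adjusted p = 0.313). Prg4, the lubricin gene, was 435 ± 131 and 669 ± 71.0 CPM (edgeR adjusted p = 0.185), and the membrane proteoglycan gene Cspg4 133 ± 11.8 and 189 ± 28.8 (edgeR adjusted p = 0.201). Without the rule genes the list's sum ran from 13868 to 15286 CPM in controls and from 13767 to 15694 after OVA, so at the level of the whole group the libraries overlapped.

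Of 16 non-collagenous matrix genes tested, 2 rose (0.325% of all genes tested did), Tnc and Clec3b, both far more abundant in fibroblasts. Tnc, tenascin C, is a matrix protein of injury and tendon; it had 1 UMI in all control chondrocytes and 70 after OVA, a ratio of 38.7 per UMI sequenced with a counting interval of 6.72 to 1549. The interval counts every UMI as independent, though 1 cell held 26.3, 68.8 and 74.3% of the Tnc UMIs of EC-OVA 1, 2 and 3. Without the 3 highest cells of each library, Tnc was 0 CPM in controls and 5.09, 2.00 and 4.65 after OVA. Without EC-SAL 3 the edgeR adjusted p of Tnc was 0.0838. Cells with a Tnc UMI, 0.269 and 3.54% of chondrocytes, were a smaller share than among keratin-rich barcodes (6.93 and 12.6%). With every cell thinned to 1000 UMIs the shares were 0 and 0.722% against 1.83 and 4.0%, so the share of cells is not read as expression. Clec3b, tetranectin, went from 142 ± 19.1 to 257 ± 48.1 CPM (log2 0.87 ± 0.164, edgeR adjusted p = 0.0341), a call lost without any of EC-SAL 1, EC-SAL 3, EC-OVA 1, EC-OVA 2 or EC-OVA 3 (edgeR adjusted p 0.0544 to 0.155), and with cells thinned to 1000 UMIs (0.568). Comp, the cartilage oligomeric matrix protein gene, stood at 844, 880 and 881 CPM in controls and 488, 680 and 676 after OVA; its groups did not overlap but it did not pass (edgeR adjusted p = 0.182). Matn3 was 151 ± 44.6 and 261 ± 46.2 CPM (edgeR adjusted p = 0.135), Cnmd 888 ± 121 and 1040 ± 42.3 (edgeR adjusted p = 0.498) and Mgp, the matrix Gla protein that restrains calcification, 775 ± 230 and 786 ± 68.3 (edgeR adjusted p = 0.975).

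Elastic fibre genes had the largest median of the matrix lists, a log2 change of 0.50, with 13 of 16 positive and 10 whose groups did not overlap with EC-OVA higher (51.9% and 8.38% over all genes tested). Eln and Loxl2, a lysyl oxidase that cross-links elastin and collagen, passed (0.325% of all genes tested rose). Loxl2 stood at 33.9, 29.1 and 36.5 CPM in controls and 71.8, 55.6 and 74.5 after OVA (log2 1.02 ± 0.192, edgeR adjusted p = 0.034), and its call was lost without any library except EC-OVA 2 (edgeR adjusted p 0.0845 to 0.155) and in DESeq2 (adjusted p = 0.107). Lox was 382 ± 42.9 and 581 ± 117 CPM (edgeR adjusted p = 0.106), Fbln5, which helps assemble elastin, 41.4 ± 5.79 and 68.6 ± 6.31 (edgeR adjusted p = 0.106) and Fbn1, the microfibril protein fibrillin 1, 129 ± 13.6 and 169 ± 14.7 (edgeR adjusted p = 0.277). The list, in which Eln dominates, summed to 5745 to 7335 CPM in controls and 9587 to 11284 after OVA.

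The regulators of cartilage identity showed no such lean. None of 15 chondrogenic transcription factors tested passed, 6 were positive and the median log2 change was -0.01. Sox9 stood at 778, 879 and 821 CPM in controls and 808, 810 and 763 after OVA, overlapping groups with a log2 change of -0.05 ± 0.101 (edgeR adjusted p = 0.921). Sox5 was 77.6 ± 4.43 and 51.1 ± 1.66 CPM, with groups that did not overlap (edgeR adjusted p = 0.141), and Scx, a tendon factor, 18.5 ± 15 and 47.6 ± 25.7 (edgeR adjusted p = 0.314).

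Among 7 genes of hypertrophy and mineralization, the late stage in which chondrocytes calcify their matrix, 1 rose (0.325% of all genes tested did). Spp1, osteopontin, stood at 25.4, 14.6 and 48.1 CPM in controls and 161, 143 and 189 after OVA (log2 2.47 ± 0.261, edgeR adjusted p = 0.00108). With markers at 0.3% of UMIs the log2 fold change of Spp1 was 1.64 (edgeR adjusted p = 0.0602). Within bands of marker UMIs the libraries overlapped from 10 to 19 (38.5, 17.7 and 37.4 CPM against 73.6, 22.2 and 395). They also overlapped from 20 to 49 (8.15, 4.91 and 74.4 against 290, 285 and 26.2). At 50 or more, Spp1 stood at 30.3, 31.1 and 0 CPM against 58.0, 32.2 and 163. Its UMIs lay in 21 of 354 and 56 of 539 cells, and the 3 highest cells of each EC-OVA library held 57.6 to 82.2% of them. The shares of cells, 5.93 and 10.4%, were above the 0.536 and 0.631% of keratin-rich barcodes. Col10a1, the hypertrophic collagen, was 40.4 ± 8.06 and 74.9 ± 27.0 CPM (edgeR adjusted p = 0.211), and Ihh, Sp7, Bglap, Dmp1 and Phospho1 had no UMI.

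Protease inhibitors rose while no protease passed. Timp3, the matrix-bound inhibitor, stood at 739, 862 and 629 CPM in controls and 1212, 1109 and 1283 after OVA (log2 0.70 ± 0.122, edgeR adjusted p = 0.0245). Timp1 went from 665 ± 84.7 to 1081 ± 139 CPM (log2 0.71 ± 0.126, edgeR adjusted p = 0.0266; without EC-SAL 1, EC-SAL 3, EC-OVA 1 or EC-OVA 3, 0.0656 to 0.155). They were the called members among 13 tested, where 0.325% of all genes tested rose. The 13 had a median log2 change of 0.32. The Timp3 call was lost without EC-SAL 1, EC-SAL 3, EC-OVA 1 or EC-OVA 3 (edgeR adjusted p 0.0768 to 0.15), and both calls with cells thinned to 1000 UMIs (0.106); at 50 marker UMIs the Timp3 log2 change was -0.05.

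In glycosaminoglycan synthesis, 1 of 18 genes rose (0.325% of all genes tested did), Has1, a hyaluronan synthase. It stood at 20.3, 32.7 and 18.3 CPM in controls and 99.4, 82.0 and 96.1 after OVA (log2 1.97 ± 0.212, edgeR adjusted p = 0.00108). With at least 3 marker UMIs the log2 fold change of Has1 was 0.82 (edgeR adjusted p = 0.0614), and with at least 50 it was 1.42 (0.75). Has1 is chiefly a fibroblast gene in these libraries, at 1139 CPM there. Cells with a UMI were 6.27 ± 2.0% and 11.7 ± 1.5% of chondrocytes, at or under the 11.5 and 12% of keratin-rich barcodes, which were deeper (median 6973.5 to 7715 UMIs per library against 4120.5 to 5857.5). Thinned to 1000 UMIs, the shares were 2.55 ± 1.5% and 4.34 ± 1.5% in chondrocytes and 2.84 and 1.90% in keratin-rich barcodes, so in controls the share was not above this background. Genes of collagen folding and secretion had 0 of 20 past the test and a median log2 change of 0.16. The 2 with the smallest p were Mia3, an exporter of collagen from the endoplasmic reticulum (34.4 ± 1.48 and 52.2 ± 7.17 CPM, edgeR adjusted p = 0.259), and P3h4 (62.1 ± 7.90 and 82.6 ± 9.45, edgeR adjusted p = 0.36).

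Lipid genes leaned downward. Of 23 tested, 1 fell, 5 were positive and the median log2 change was -0.20. Over all genes tested, 0.280% fell, 51.9% were positive and the median was 0.01. Apoe, the lipid carrier apolipoprotein E and one of the most abundant transcripts here, stood at 7607, 7315 and 7770 CPM in controls and 4790, 4946 and 4654 after OVA. The groups were far apart relative to their spread, with a log2 change of -0.65 ± 0.0775 (edgeR adjusted p = 0.00287). With at least 20 marker UMIs the log2 fold change of Apoe was -0.50 and its call was lost (edgeR adjusted p = 0.0727), as at 50 (0.145). In pooled controls Apoe was lower where marker UMIs were higher: 8909 CPM from 10 to 19, 6665 from 20 to 49 and 5131 at 50 or more. From 20 to 49 the libraries overlapped (6676, 5370 and 7635 CPM in controls, 4643, 5340 and 5566 after OVA). In the other 2 bands the EC-OVA libraries lay below all controls. The part of marker UMIs in the Apoe change was not tested. Apoe was lower after OVA in fibroblasts (log2 -0.52) and tendon-like cells (-0.97) too, and at 12572 CPM it was higher in keratin-rich barcodes than in chondrocytes. The share of chondrocytes with an Apoe UMI, thinned to 1000 UMIs, was 92.6 ± 3.3% in controls and 79.2 ± 1.2% after OVA. Scd1, a desaturase of fatty acids, was 953 ± 350 and 827 ± 109 CPM, Fasn, the fatty acid synthase gene, 84.5 ± 18.9 and 65.5 ± 6.10, and Plin2, a droplet coat gene, 219 ± 27.7 and 183 ± 50.2, none past the test (edgeR adjusted p 0.513 to 0.789).

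Inflammatory lists moved in few members. In the IL-1, TNF and NF-kB list 3 of 26 rose (0.325% of all genes tested did), with a median log2 change of 0.00. Ptgs2, the inducible cyclooxygenase, stood at 131, 164 and 123 CPM in controls and 246, 208 and 286 after OVA (log2 0.84 ± 0.156, edgeR adjusted p = 0.034; without EC-SAL 1, EC-SAL 3, EC-OVA 1 or EC-OVA 3, 0.115 to 0.176) and was higher in chondrocytes than in all other barcodes (4.84-fold). Vcam1, an adhesion molecule for leukocytes, went from 55.6 ± 21.6 to 136 ± 7.58 CPM (log2 1.30 ± 0.213, edgeR adjusted p = 0.018; without EC-OVA 1 or EC-OVA 3, 0.0767 and 0.0649). With cells thinned to 1000 UMIs the log2 fold change of Vcam1 was 0.70 (edgeR adjusted p = 0.579), and with at least 50 marker UMIs it was 4.03 (0.0574). Ccl7, a monocyte chemokine, stood at 39.0, 74.6 and 41.5 against 265, 217 and 589 CPM (log2 2.80 ± 0.371, edgeR adjusted p = 0.00575; without EC-SAL 3, 0.0654); it is abundant in fibroblasts (5887 CPM), and keratin-rich barcodes held a UMI of it as often as chondrocytes (13.9 and 23.9% against 13.2 and 20.1%; thinned, 3.85 and 5.90% against 4.23 and 7.82%). The 3 highest cells of each library held 30.4 to 68.3% of the Ccl7 UMIs in controls and 66.5 to 77.0% after OVA. Without those cells Ccl7 was 27.6, 24.8 and 22.2 CPM in controls and 71.7, 50.8 and 206 after OVA. The neutrophil chemokine Cxcl1, at 3911 ± 75.7 and 4357 ± 637 CPM, did not pass (edgeR adjusted p = 0.596).

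Postn, periostin, a matrix protein induced by IL-13, was the 1 called member of 9 in the IL-4 and IL-13 list (0.325% of all genes tested rose). It stood at 18.6, 21.8 and 14.9 CPM in controls and 74.8, 79.1 and 238 after OVA (log2 2.84 ± 0.507, edgeR adjusted p = 0.0279). In EC-OVA 3, 1 cell held 54.3% of its UMIs, and leaving out cells with high doublet scores gave a log2 change of 1.15 (edgeR adjusted p = 0.333). The call was also lost without EC-SAL 1 or EC-SAL 3 (edgeR adjusted p = 0.0867 and 0.156). Cells with a UMI were 7.05 and 12.1% of chondrocytes and 34.2 and 35.6% of keratin-rich barcodes, and thinned to 1000 UMIs 1.39 and 3.75% against 7.77 and 9.05%, so the share of cells is not read as expression. The receptor genes Il4ra (16.7 ± 3.54 and 16.7 ± 2.11 CPM) and Il13ra1 (77.7 ± 19.9 and 78.4 ± 5.53) had the same mean within their spread. Interferon-stimulated genes had 0 of 16 past the test and a median log2 change of -0.22; the smallest p were those of Irf1 (361 ± 70.3 and 248 ± 40.0 CPM, edgeR adjusted p = 0.213) and Rtp4 (16 ± 3.42 and 7.13 ± 4.93, edgeR adjusted p = 0.407).

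Growth factor lists had few calls. Of 22 FGF, IGF and Wnt genes, 2 rose (0.325% of all genes tested did), both binding proteins for insulin-like growth factors. Igfbp2 stood at 61.0, 94.6 and 91.3 CPM in controls and 267, 156 and 310 after OVA (log2 1.58 ± 0.239, edgeR adjusted p = 0.0113), and its call was lost without EC-SAL 3, EC-OVA 1 or EC-OVA 3 (edgeR adjusted p 0.0552 to 0.0737). With at least 3 marker UMIs the log2 fold change of Igfbp2 was 0.12 (edgeR adjusted p = 0.816). Igfbp4, whose level in chondrocytes was 0.0782 of that in all other barcodes, went from 16.8 ± 10.2 to 63.3 ± 16.8 CPM (log2 1.93 ± 0.365, edgeR adjusted p = 0.0341), and with at least 3 marker UMIs its log2 change was -0.22. Without EC-SAL 1, EC-SAL 3, EC-OVA 2 or EC-OVA 3 its edgeR adjusted p was 0.0838 to 0.155, and with high doublet scores left out 0.492. None of 24 BMP and TGF-beta genes passed, with a median log2 change of 0.20. Tgfb1 stood at 103 ± 6.04 and 148 ± 5.29 CPM with groups that did not overlap (edgeR adjusted p = 0.106), and Inhba, an activin chain, at 18.6, 5.46 and 4.98 against 44.3, 27.3 and 148 (edgeR adjusted p = 0.121). Outside the lists, Nupr1, a stress-induced nuclear protein, stood at 407, 420 and 559 CPM in controls and 998, 775 and 941 after OVA (log2 0.98 ± 0.138, edgeR adjusted p = 0.00794; without EC-OVA 1 or EC-OVA 3, 0.0616 and 0.0552; with at least 20 marker UMIs 0.144, with markers at 0.3% of UMIs 0.0627). Col3a1, the type III collagen of fibroblasts, went from 609 ± 51.5 to 1166 ± 286 CPM (log2 0.94 ± 0.152, edgeR adjusted p = 0.0151; without EC-SAL 3, EC-OVA 1 or EC-OVA 3, 0.0649 to 0.113; with cells thinned to 1000 UMIs, 0.146).

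Genes induced by tissue dissociation and heat leaned downward, with 22 of 25 members negative, 2 called lower and a median log2 change of -0.18. Over all genes tested, 51.9% were positive, 0.280% were called lower and the median was 0.01. Hspb1, a small heat shock protein, went from 1387 ± 156 to 914 ± 103 CPM (log2 -0.59 ± 0.113, edgeR adjusted p = 0.0347), and Atf3, an immediate stress factor, from 1879 ± 137 to 1340 ± 65.3 (log2 -0.48 ± 0.0958, edgeR adjusted p = 0.0498). Both calls are close to the threshold: Hspb1 was lost without any 1 library but EC-SAL 2 (edgeR adjusted p 0.0876 to 0.176), and Atf3 without any 1 library (0.0688 to 0.164). Fos did not pass (1834 ± 219 and 1336 ± 175, edgeR adjusted p = 0.135). Glycolysis and hypoxia (0 of 20), endoplasmic reticulum stress (0 of 21) and the mitotic cycle (0 of 2) had no call. Their smallest p were those of Hif1a (199 ± 23.3 and 261 ± 7.04 CPM, edgeR adjusted p = 0.245), Ldha (1397 ± 102 and 1124 ± 109, edgeR adjusted p = 0.263), Hspa5 (1300 ± 72.5 and 1075 ± 86.2, edgeR adjusted p = 0.336), Dnajb9 (166 ± 30.6 and 134 ± 21.8, edgeR adjusted p = 0.545), Pcna (78.2 ± 6.28 and 61.6 ± 9.50, edgeR adjusted p = 0.504) and Tpx2 (18.6 ± 10.1 and 11.4 ± 10.5, edgeR adjusted p = 0.736).

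**Figure D4:**
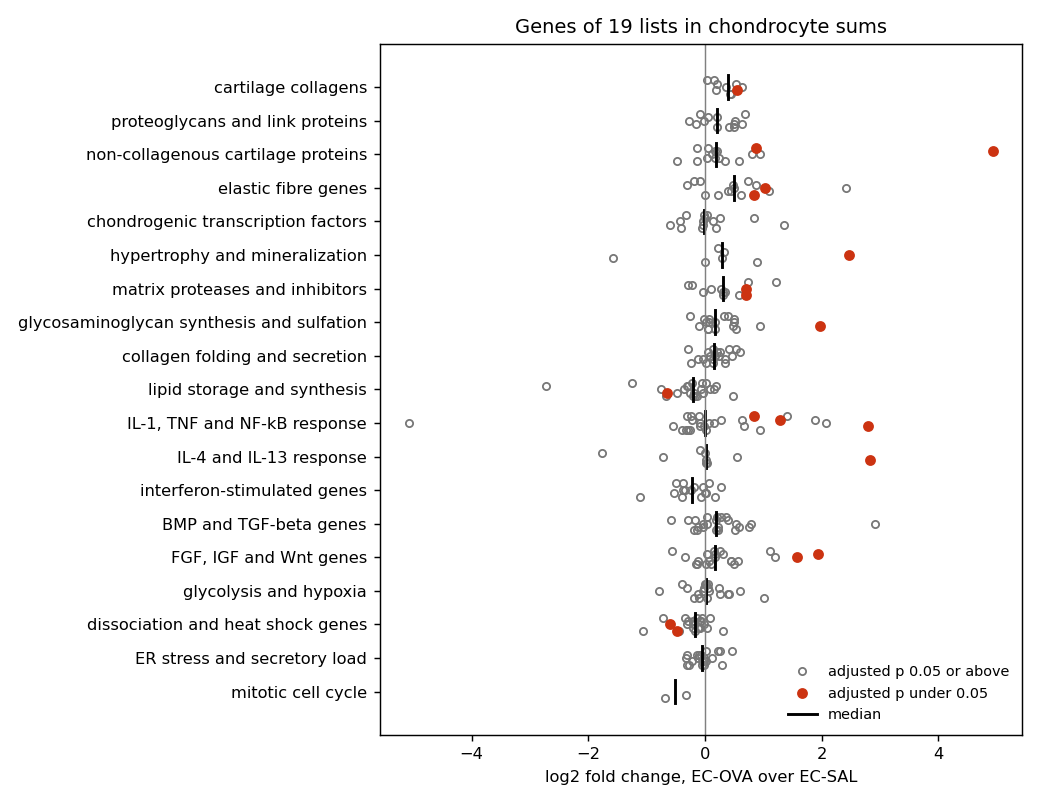
Log2 fold change (x axis, EC-OVA over EC-SAL) of each tested gene in 19 lists (y axis), without the genes that chose the cells; filled points passed the test, open ones did not, and the black bar is the list's median. Cartilage collagens lie right of 0 in all 10 members, elastic fibre genes in 13 of 16, and lipid genes in 5 of 23.

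Most of the named falls were epidermal genes. Krt10, a keratin of differentiating keratinocytes, stood at 3365, 256 and 978 CPM in controls and 101, 119 and 156 after OVA (log2 -3.60 ± 0.658, edgeR adjusted p = 0.0319). Calm4 (log2 -3.88), Krt2 (-3.53), Krtdap (-3.51), Ly6d (-3.34), Lgals7 (-3.13), Serpinb5 (-3.11), Dapl1 (-3.05), Cst6 (-2.99) and Fam25c (-2.97) fell likewise (edgeR adjusted p 0.00794 to 0.0416), and Krt14, which the rule limits, stood at 200, 195 and 378 against 47.2, 76.1 and 106 CPM. Krt2, Ly6d, Serpinb5, Cst6 and Krt14 were under 0.1 of their level in all other barcodes. A few cells carried much of this RNA: in EC-SAL 1, 3 cells held 91.9% of the Krt10 UMIs. Without the 3 highest cells of each library, Krt10 was 302, 234 and 214 CPM in controls and 85.9, 97.0 and 77.7 after OVA, and the groups still did not overlap. With high doublet scores left out the log2 fold change of Krt10 was -1.72 (edgeR adjusted p = 0.000247). The Krt10 call was lost without EC-SAL 3, EC-OVA 1, EC-OVA 2 or EC-OVA 3 (edgeR adjusted p 0.0794 to 0.155), and each of the other 9 was lost without at least EC-OVA 1 and EC-OVA 3 (0.0616 to 0.163). In fibroblasts (-1.44) Krt10 was also lower after OVA.

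The response of chondrocytes was then compared with that of fibroblasts (5885 cells) and of tendon-like cells (1914 cells) from the same libraries. Tendon-like cells held at least 10 UMIs of Tnmd, Fmod, Comp and Thbs4 together and under 10 of the cartilage markers. Fibroblasts held at least 10 UMIs of Col1a1, Col1a2, Col3a1 and Dcn together, no cartilage marker and under 10 UMIs of the tendon-like genes. Both sets kept the gene, mitochondrial, keratin and endothelial limits and had no UMI of Ptprc. In fibroblasts 1175 of 11875 genes changed (9.89%; 5.66% higher, 4.24% lower) and in tendon-like cells 497 of 9665 (5.14%; 2.71% higher, 2.43% lower), with more cells and UMIs than in the chondrocyte sums. The difference of the responses passed for 72 of 11165 genes against fibroblasts (0.645%; 0.439% higher in chondrocytes, 0.206% lower) and for 51 of 9439 against tendon-like cells (0.540%; 0.456% higher, 0.0848% lower). Without EC-SAL 2 these were 120 and 105, and without EC-SAL 3 53 and 28.

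The response of 1520401A03Rik was larger in chondrocytes than in fibroblasts, where it was 0.18 on the log2 scale: the difference was 1.83 ± 0.237 (edgeR adjusted p = 0.000965) and passed in all 12 alternatives tried. Against tendon-like cells (0.64) the difference of 1.40 ± 0.361 did not pass (edgeR adjusted p = 0.131), though it did with markers at 0.3% of UMIs (edgeR adjusted p = 0.00878). Eln rose in fibroblasts by 0.91 on the log2 scale from a lower level (342 CPM); the difference of -0.09 ± 0.111 did not pass (edgeR adjusted p = 0.903).

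Other rises differed from both cell types. Has1 (differences of 1.95 ± 0.185 and 1.59 ± 0.184), Nupr1 (0.96 ± 0.128 and 0.95 ± 0.164), Timp3 (0.91 ± 0.14 and 1.06 ± 0.128), Igfbp2 (0.96 ± 0.178 and 1.22 ± 0.198) and Ccl7 (2.41 ± 0.279 and 2.08 ± 0.349) rose more in chondrocytes than in fibroblasts and tendon-like cells (edgeR adjusted p 0.000114 to 0.0129). Calls lost without single libraries were those of Igfbp2 against fibroblasts (EC-SAL 1, EC-SAL 3, EC-OVA 1 or EC-OVA 3, 0.0544 to 0.0894) and, against tendon-like cells, of Igfbp2 (EC-SAL 3, 0.0592), Nupr1 (EC-SAL 1 or EC-OVA 1, 0.0787 and 0.0851) and Ccl7 (EC-SAL 1 or EC-SAL 3, 0.066 and 0.0801). Under other settings, the Igfbp2 difference from fibroblasts was lost in DESeq2 (adjusted p = 0.0959). Against tendon-like cells, Nupr1 was lost with at least 20 marker UMIs (edgeR adjusted p = 0.0753) and Ccl7 with markers at 0.3% of UMIs (0.072). In chondrocytes, 3 cells of each EC-OVA library held 66.5 to 77.0% of its Ccl7 UMIs, and the Ccl7 differences were not tested without them. Timp3 itself was lower after OVA in tendon-like cells (log2 -0.36). Ptgs2 and Timp1 rose in all 3, by 0.81 and 1.18 in fibroblasts and 1.19 and 0.93 in tendon-like cells, and their differences did not pass (edgeR adjusted p 0.131 to 1).

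Several genes responded less in chondrocytes. Cxcl5, a neutrophil chemokine, rose by 3.19 in fibroblasts and 5.23 in tendon-like cells on the log2 scale, while chondrocytes held 32.2, 5.46 and 1.66 CPM in controls and 3.94, 1.95 and 1.80 after OVA; the differences were -5.55 ± 0.816 (edgeR adjusted p = 0.00216) and -7.59 ± 0.57 (edgeR adjusted p = 1.54e-05). Without EC-SAL 1 the difference from fibroblasts was -3.69 (edgeR adjusted p = 0.229). Sfrp1, a secreted Wnt inhibitor, rose by 1.12 and 1.37 there and stood at 68.0 ± 8.71 and 53.2 ± 6.72 CPM in chondrocytes (differences -1.47 ± 0.202 and -1.68 ± 0.331, edgeR adjusted p = 0.00107 and 0.0322); without any 1 library but EC-OVA 1 the second was 0.0606 to 0.162. Against fibroblasts the largest negative differences also included Csf3 (-2.42), H19 (-2.27) and Epas1 (-1.94), and against tendon-like cells Cd74 (-3.75), whose level in chondrocytes was 0.0117 of that in all other barcodes, and Pmf1 (-1.83; without any 1 library but EC-OVA 2, edgeR adjusted p 0.056 to 0.118).

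Cartilage genes differed as well: Cnmd (1.67 ± 0.221 and 1.93 ± 0.21), Col9a1 (1.75 ± 0.289 and 1.98 ± 0.193) and Matn3 (1.52 ± 0.281 and 1.57 ± 0.204) were higher in their response than in fibroblasts and tendon-like cells (edgeR adjusted p 0.000156 to 0.0124). Against tendon-like cells with none of the 4 cartilage markers the Col9a1 difference was 2.57 and its call was lost (edgeR adjusted p = 0.0687), and the Matn3 difference from fibroblasts was lost without EC-SAL 1 or EC-OVA 1 (0.106 and 0.057). Hapln1 differed from fibroblasts (1.42 ± 0.229, edgeR adjusted p = 0.00413). In chondrocytes these 4 did not pass. The rules keep cartilage markers low in the other cells, where Cnmd stood at -1.43 in fibroblasts and -1.71 in tendon-like cells against 0.24 in chondrocytes, and Matn3 at -0.71 and -0.75 against 0.80. Barcodes with 3 to 9 marker UMIs numbered 377 in controls and 284 after OVA, and the part of that shift in these differences was not tested.

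**Figure D5:**
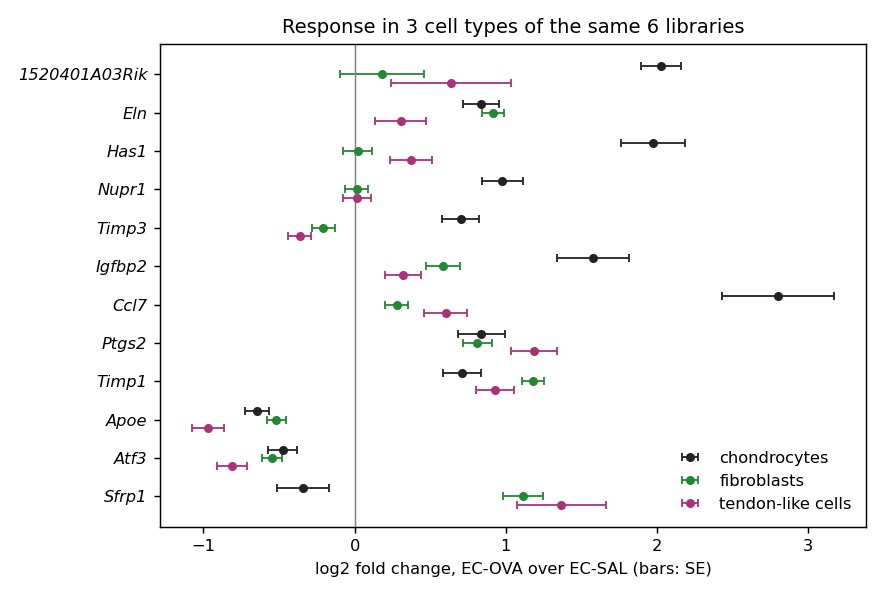
Log2 fold change (x axis, EC-OVA over EC-SAL; bars are SE) of 12 genes in chondrocytes, fibroblasts and tendon-like cells of the same 6 libraries. Eln, Ptgs2 and Apoe lie close together in chondrocytes and fibroblasts, while 1520401A03Rik, Has1 and Nupr1 are near 0 in fibroblasts and raised in chondrocytes, and Sfrp1 is raised in fibroblasts and tendon-like cells and below 0 in chondrocytes.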

How the data were processed

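The authors deposited UMI counts per gene and barcode for each of 6 libraries, made with Cell Ranger 3.1.0 per the file headers and with STAR on mm10 per the submitters' processing notes; every barcode has at least 500 UMIs, and the annotation release is not given in the sources used here. Counts of 32285 genes were summed per library over the cells of the rule. The members, gene lists and genes 1520401A03Rik, Eln and G0s2 were chosen with earlier results of these data known. Sums were tested with edgeR 4.0.16 (R 4.3.3; TMM, filterByExpr, quasi-likelihood, Benjamini-Hochberg, threshold 0.05); differences between cell types used an interaction with library as a block; DESeq2 1.42.0 was an alternative. Genes were named by rule: the 12 largest rises and 12 largest falls past the test with groups apart and 20 CPM, a fixed set, the leading members of each list, the 15 largest ratios to other barcodes and the 4 largest differences each way. Col11a1, Lox, Fbln5, Fbn1, Scd1, Fasn, Plin2, Cxcl1, Il4ra, Il13ra1 and Fos were added after their values were seen. On simulated counts for the chondrocyte comparison (6777 genes), 59% of 100 genes changed by a log2 of 1 and 96% of 100 changed by 2 were recovered, with 12 false calls; for the difference from fibroblasts (11165 genes) 26% and 61% were recovered, with 11 false calls. Doublets were ranked with Scrublet (scanpy 1.11.5), whose own threshold marked 0.026 to 0.304% and so had not worked; the highest scores at 0.8% per 1000 barcodes, 24 chondrocytes in all, were left out as an alternative. Shares were tested by exact permutation over libraries (scipy 1.17.1). Levels are UMIs scaled to the total of each sum and are not divided by gene length. They were used to compare libraries and cell types, and differences in level between genes were not tested.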

Additional observations from a re-analysis of the deposited data

Results flagged for a closer look

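The responses of these genes differed between chondrocytes and another cell type of the same libraries by an interaction test (edgeR adjusted p under 0.05). Values are chondrocyte minus other response on the log2 scale. Against fibroblasts, the differences were 2.00 for Postn, 2.41 for Ccl7, 1.95 for Has1, 1.68 for Igfbp4, 0.96 for Igfbp2, 0.96 for Nupr1, 1.83 for 1520401A03Rik, 0.94 for Clec3b and 0.91 for Timp3. For cartilage genes they were 1.42 for Hapln1, 1.52 for Matn3, 1.67 for Cnmd and 1.75 for Col9a1. None of these cartilage genes passed in chondrocytes themselves. The rules ask for cartilage markers in chondrocytes and for none in fibroblasts, and the part of the rules in these differences was not tested. The Postn difference was 0.47 and that of Igfbp4 0.73 with high doublet scores left out (edgeR adjusted p = 0.773 and 0.644); both calls were also lost with at least 20 marker UMIs (0.315 and 0.411). Without EC-SAL 1 or EC-SAL 3 the Postn p was 0.0585 and 0.165, and without EC-SAL 1, EC-SAL 3 or EC-OVA 3 that of Igfbp4 was 0.0523 to 0.0658. Lower responses than in fibroblasts were those of Epas1 (-1.94), H19 (-2.27), Csf3 (-2.42), Cxcl5 (-5.55) and Sfrp1 (-1.47).

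Against tendon-like cells, the differences were 2.08 for Ccl7, 1.59 for Has1, 1.22 for Igfbp2, 0.95 for Nupr1, 1.06 for Timp3, 0.85 for Mgp and 1.67 for Erg. For cartilage collagens and matrix genes they were 1.51 for Col9a2, 1.57 for Matn3, 1.93 for Cnmd and 1.98 for Col9a1. None of these cartilage genes passed in chondrocytes themselves. The rule keeps cartilage markers low in tendon-like cells, and its part in these differences was not tested. Cxcl5 (-7.59), Sfrp1 (-1.68), Pmf1 (-1.83) and Cd74 (-3.75) had lower responses than in tendon-like cells. The Erg call was lost without any 1 library (edgeR adjusted p 0.0534 to 0.168), and the Mgp call without any 1 library but EC-SAL 2 (0.0825 to 0.261). Against tendon-like cells with none of the 4 cartilage markers the Col9a2 call was lost (0.41), as were those of Erg (0.0507) and Mgp (0.0848).

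Differences from fibroblasts of 8.32 for Npy, 7.47 for Mlana, 6.70 for Hba-a2 and 6.21 for Hba-a1 each rest on 1 or 2 cells of 1 library. In EC-OVA 2, 1 cell held 248 of 250 Npy UMIs, and 2 cells held all 171 of Mlana, a melanocyte gene. In EC-OVA 1, 1 cell held 956 of 958 Hba-a1 UMIs and 709 of 711 of Hba-a2, genes of red cells.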

How the results depend on the processing

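The log2 change of 1520401A03Rik kept its direction and its side of the threshold in all 19 alternatives (1.83 to 2.30), and the share difference its direction in all 17 (0.685 to 3.81 percentage points; 2.13 to 2.26 without single libraries). Higher and lower genes numbered 22 and 19, and 162 and 173 with no filter on low counts, 41 and 32 with the replicate block, 5 and 1 with at least 50 marker UMIs, 9 and 10 with cells thinned to 1000 UMIs, and 47 and 44 with at least 3 marker UMIs, chosen after seeing the data; DESeq2 gave 30 and 28. Leaving out single libraries gave 6 to 31 higher and 2 to 58 lower. Genes differing from fibroblasts, 72, were 264 with no filter, 38 with DESeq2, 117 with doublet scores left out and 53 to 120 without single libraries; those differing from tendon-like cells, 51, were 270 with no filter and 28 to 105 without single libraries. Fewer libraries or cells were fitted in the left-out settings; the cause of the other shifts was not tested. The replicate numbers only name libraries: same-numbered EC-SAL and EC-OVA libraries deviated together with r of 0.0921, 0.0614 and -0.114 over 2695 genes, and not every library correlated best with its own number. The replicate block gave the same share difference, 2.21 percentage points (exact sign-flip test, smallest p 0.25).

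Signs turned in these cases. With at least 50 marker UMIs the log2 change was -0.017 for Col9a3, -0.35 for Col9a2, 0.41 for Sox9, 0.056 for Comp, -0.76 for Mgp, -0.048 for Timp3, 0.26 for Hspa5 and 0.34 for Dnajb9. Sox9 was 0.064 with at least 20 marker UMIs, 0.059 with markers at 0.3% of UMIs and 0.017 with at least 3 marker UMIs. With at least 3 marker UMIs Igfbp4 was -0.22, Mgp -0.17 and Cd74 3.0, and Cd74 was 0.012 with a mitochondrial limit of 10%. Without single libraries Mgp ranged from -0.099 to 0.29, Csf3 from -0.53 to 0.29, Cd74 from -0.26 to 0.067 the Eln difference from fibroblasts from -0.20 to 0.066 and that of Ptgs2 from -0.075 to 0.081; with DESeq2 the latter was -0.0090. The difference from fibroblasts was -1.15 for Hba-a2 and -2.14 for Hba-a1 with doublet scores left out, and -0.90 for Hba-a1 with markers at 0.3% of UMIs. The Eln difference from tendon-like cells was -0.26 against those with none of the 4 cartilage markers.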

Other observations

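Among the genes lower in EC-OVA chondrocytes, 2 with clone names were lower in the other cell types as well. Both are annotated on sex chromosomes, Gm21860 on Y (chrY:90754513-90754821) and G530011O06Rik on X (chrX:169975043-169978917). The labels give no sex, and whether the groups differ in the sex of the mice was not tested. Gm21860 stood at 33.9, 43.7 and 59.7 CPM in controls and 1.97, 1.95 and 3.59 after OVA (log2 -4.09 ± 0.384, edgeR adjusted p = 0.000499), and its log2 change was -5.42 in fibroblasts and -4.56 in tendon-like cells. G530011O06Rik stood at 258, 193 and 307 against 116, 97.6 and 151 CPM (log2 -1.05 ± 0.188, edgeR adjusted p = 0.0284; without EC-SAL 1, EC-SAL 3, EC-OVA 1 or EC-OVA 2, 0.0738 to 0.139), with -1.20 in fibroblasts and -1.42 in tendon-like cells. Both were named after their values were seen.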
